A study of Sus scrofa with 6 samples.

Results

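ABCA1, ABCB1, ABCB6 and ABCC2 are ATP-binding cassette (ABC) transporters, membrane pumps that use ATP to carry lipids, drugs, conjugates or porphyrins across membranes. They were followed in the porcine small intestinal cell lines IPEC-1 and IPEC-J2 through every probe set whose only gene symbol in the platform annotation was 1 of the 4. They are 4 of the 6765 genes with such a probe set and had 7 of the 23999 non-control probe sets, 3 of them for ABCB1, 2 for ABCB6 and 1 each for ABCA1 and ABCC2. In the enterocyte, ABCB1 (P-glycoprotein) and ABCC2 are known as pumps of the apical membrane that return drugs, toxins and conjugated compounds to the lumen. ABCA1 passes cholesterol and phospholipid to apolipoprotein A-I, and ABCB6 carries porphyrins, the precursors of heme.

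The data were 6 Affymetrix arrays from untreated cells, 3 cultures per cell line (IPEC-1 and IPEC-J2), each hybridised to its own array with 500 ng of RNA. Both lines are spontaneously immortalised epithelial cells of newborn piglets, grown as polarised monolayers on membrane inserts for 7 days according to the sample labels (the methods give a later day), with the same medium, serum, insulin-transferrin-selenium and epidermal growth factor. Each line stands for itself and not for several animals, and the p-values measure the spread between 3 cultures of a line. IPEC-1 replicate 1 and IPEC-J2 replicate 3 carry the same culture note in the labels (note A), as do IPEC-1 replicate 2 and IPEC-J2 replicate 1 (note B).

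Signals are the deposited values per probe set and were read as log2. The lowest value on every array was exactly 4.00, which is called the floor here, and values at the floor have no order among themselves. Between 40.5 and 48.3% of the probe sets were at the floor on an array, most on IPEC-J2 replicate 1, which also had the lowest median (5.37, against 6.18 to 6.53 on the other arrays). IPEC-J2 was compared with IPEC-1 in each probe set by limma, with adjustment over all 23999 probe sets and a threshold of 0.05. A difference is IPEC-J2 minus IPEC-1 on the log2 scale, and a fold is its antilog. With 3 arrays per line, exact permutation could not reach a p under 0.1 and was not used. For a line at the floor throughout, a substitute signal, called the level (7.85 in IPEC-1, 7.78 in IPEC-J2), gave a lower bound for the fold. It came from probe sets at the floor on all but 1 array of a line, as the 95th percentile of their signals on that array where these were above the floor.

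Of the 7 probe sets, 1 was called, an ABCB1 probe set that was higher in IPEC-J2, where 11.8% of all probe sets were called, 5.58% higher and 6.24% lower. The cell lines did not overlap in 2 of the 7, the same ABCB1 probe set and 1 of ABCB6, against 28.1% of all probe sets and 41.3% of those above the floor on at least 1 array, so neither count sets the 4 genes apart from the rest of the array. Only 1 of the 7 was above the floor on all arrays, 4 were at the floor on some and 2 on every array, where 32.0% of all probe sets were at the floor throughout. The results for ABCA1, ABCC2 and the second ABCB6 probe set therefore turn on which arrays were at the floor.

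**Figure D1:**
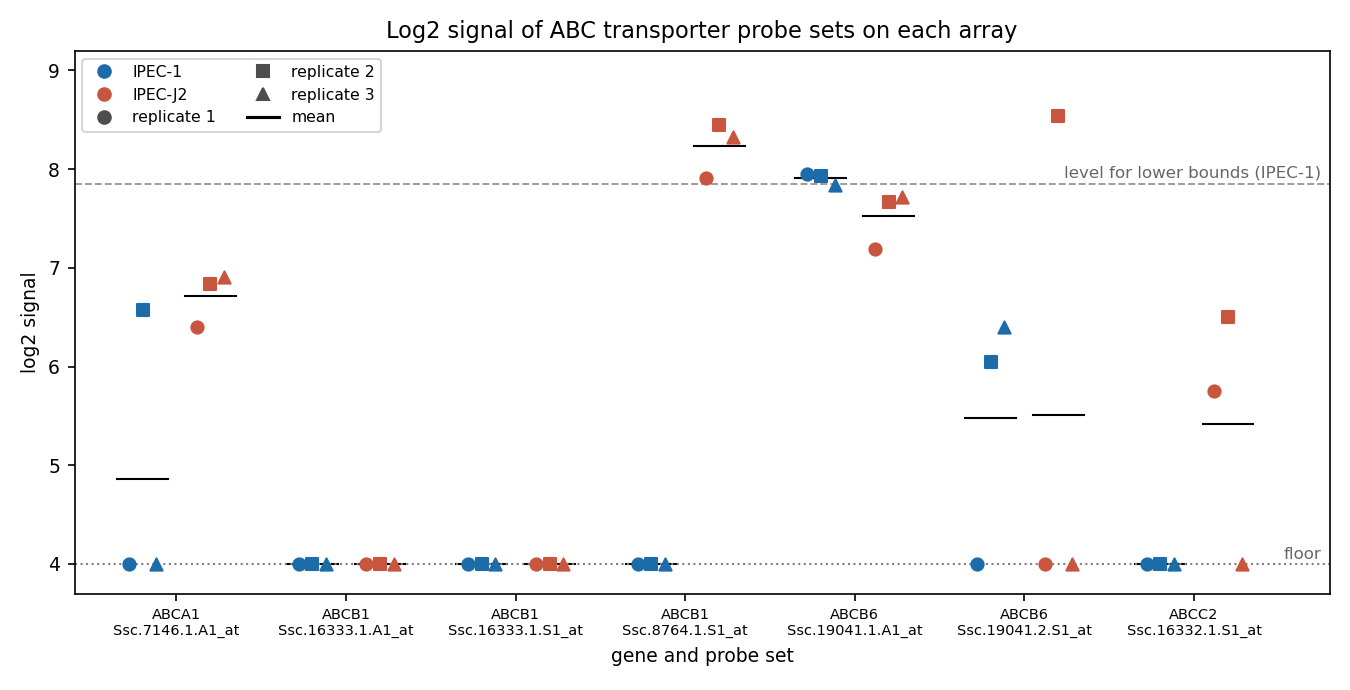
Log2 signal (vertical axis) of the 7 probe sets of ABCA1, ABCB1, ABCB6 and ABCC2 on each array, with IPEC-1 in blue, IPEC-J2 in red, replicate numbers as symbols and black bars for the means of 3 arrays. The dotted line is the floor of 4.00 and the dashed line the level of 7.85, and only ABCB1 Ssc.8764.1.S1_at has all 3 IPEC-J2 arrays above that level with all IPEC-1 arrays at the floor.

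The called ABCB1 probe set gave a signal on every IPEC-J2 array and none above the floor in IPEC-1. Probe set Ssc.8764.1.S1_at read 7.91, 8.45 and 8.33 on IPEC-J2 replicates 1, 2 and 3 and 4.00 on each of the 3 IPEC-1 arrays. All IPEC-J2 arrays lay far above the floor and close to each other. The mean was 8.23 ± 0.28 (SD, n = 3) in IPEC-J2, and the difference from the floor was 4.23 (SE 0.157, adjusted p = 0.000610 from limma). Against the level of 7.85, the ABCB1 signal of IPEC-J2 was at least 1.30-fold higher. The spread behind the test comes from the IPEC-J2 arrays and the moderation of limma, since values at the floor have no spread. The arrays of culture note A differed by 4.33 and those of note B by 3.91, and the difference over all arrays remained called with any 1 array left out (adjusted p of 0.0002 to 0.00735 from limma). With the 4 arrays of notes A and B alone, it was 4.12 and did not pass (adjusted p = 0.192 from limma, unadjusted p = 0.0114), as was the case for every probe set in that fit.

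The pattern of floor on all IPEC-1 arrays and signal on all IPEC-J2 arrays was uncommon, with 229 of 23999 probe sets, or 0.954%. The other 2 ABCB1 probe sets, Ssc.16333.1.A1_at and Ssc.16333.1.S1_at, were at the floor on all 6 arrays. They share 1 source sequence record in the annotation, while Ssc.8764.1.S1_at comes from another, so the higher level of ABCB1 rests on 1 of 3 probe sets. Averaged over its 3 probe sets, as in the methods of the study, ABCB1 was at the floor in IPEC-1 and read 5.41 ± 0.09 (SD, n = 3) in IPEC-J2, a difference of 1.41 (adjusted p = 0.000382 from limma among 6765 genes). ABCB4, the closest relative of ABCB1, had no probe set under its own symbol, and whether its mRNA adds to the ABCB1 signal was not tested.

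ABCC2, which exports glutathione and glucuronide conjugates, was above the floor on 2 arrays, both of IPEC-J2. Its probe set Ssc.16332.1.S1_at read 5.75, 6.50 and 4.00 on IPEC-J2 replicates 1, 2 and 3 and 4.00 on each IPEC-1 array. The lines overlapped at the floor through IPEC-J2 replicate 3. The difference of 1.42 had a 95% interval from -0.50 to 3.33 and did not pass (adjusted p = 0.352 from limma). The arrays of note A did not differ, both being at the floor, and those of note B differed by 1.75. Without IPEC-J2 replicate 3 the difference was 2.13 and passed (adjusted p = 0.0474 from limma), so that array decides the call. Both means lay below the levels of 7.85 and 7.78, and no fold is given.

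ABCA1 showed a signal on all IPEC-J2 arrays and on 1 of 3 IPEC-1 arrays. Probe set Ssc.7146.1.A1_at read 6.40, 6.84 and 6.91 in IPEC-J2 and 4.00, 6.57 and 4.00 in IPEC-1. IPEC-1 replicate 2 lay within the range of IPEC-J2, so the lines overlapped. The means were 4.86 ± 1.48 for IPEC-1 and 6.72 ± 0.28 for IPEC-J2 (SD, n = 3 each), and the difference of 1.86 (95% interval -0.40 to 4.12) did not pass (adjusted p = 0.310 from limma). It was 2.91 within note A and -0.17 within note B, which holds IPEC-1 replicate 2. Without that array the difference was 2.72 and passed (adjusted p = 0.0143 from limma). Without any other array it did not pass (adjusted p of 0.432 to 0.608 from limma), so a single IPEC-1 culture separates the readings. Both means lay below the levels for lower bounds.

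ABCB6 differed little in its probe set with signal on all arrays. Ssc.19041.1.A1_at read 7.95, 7.93 and 7.84 on the IPEC-1 arrays against 7.19, 7.67 and 7.72 on those of IPEC-J2, so that every IPEC-J2 array was below every IPEC-1 array. The means were 7.91 ± 0.06 and 7.53 ± 0.29 (SD, n = 3 each), a difference of -0.38 (95% interval -0.83 to 0.07) that did not pass (adjusted p = 0.293 from limma). The interval covers no change and a decrease of up to 0.83, so equal levels are not shown. The difference was -0.23 within note A and -0.74 within note B. IPEC-J2 replicate 1, the dimmest array, was the lowest, and without it the difference was -0.21 (adjusted p = 0.0963 from limma).

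The second ABCB6 probe set, Ssc.19041.2.S1_at, gave no usable comparison. It read 4.00, 6.05 and 6.40 on the IPEC-1 arrays against 4.00, 8.54 and 4.00 on those of IPEC-J2, with the highest reading of the 7 probe sets on IPEC-J2 replicate 2 beside the floor on the other IPEC-J2 arrays. Its difference of 0.03 had a 95% interval from -4.34 to 4.40. The SD pooled over the lines was 2.07, above that of 99.0% of the probe sets measured on at least 1 array, whose median was 0.262. The 2 ABCB6 probe sets come from different source records.

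**Figure D2:**
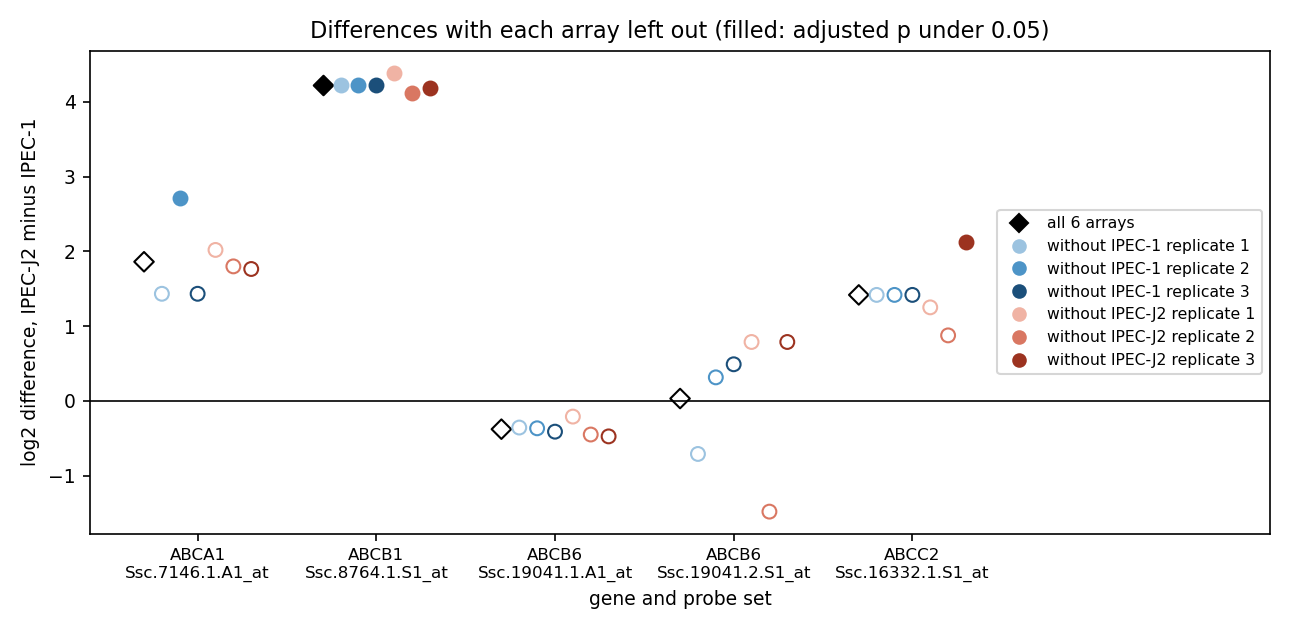
Log2 difference (vertical axis, IPEC-J2 minus IPEC-1) of the 5 probe sets of the 4 genes with signal on at least 1 array, for all 6 arrays (diamonds) and with each array left out (circles, filled where the adjusted p from limma was under 0.05). ABCB1 stays between 4.12 and 4.39 and is filled throughout, while ABCA1 is filled only without IPEC-1 replicate 2 and ABCC2 only without IPEC-J2 replicate 3.

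For each of these probe sets, the 3 most similar probe sets with 1 symbol were those with the smallest root mean square distance between mean-centred log2 signals over the 6 arrays. For ABCB1 they were CELF2, an RNA-binding protein (0.08), the transcription factor GATA2 (0.09) and the carboxylesterase CES1 (0.10). None of them rose above the floor in IPEC-1, and CELF2 read 8.13, 8.52 and 8.42 in IPEC-J2. For ABCA1 they were FGL2 (0.14), the complex I subunit NDUFV2 (0.14) and the Notch ligand JAG1 (0.16), each at the floor on IPEC-1 replicates 1 and 3 as ABCA1 was. For ABCB6 Ssc.19041.1.A1_at they were the Mediator subunit MED4 (0.03), GPN3 (0.06) and the vesicle tethering protein VPS33A (0.06). The nearest to Ssc.19041.2.S1_at, LSM12, lay 0.82 away, so no probe set followed it closely. ABCC2 had signal on too few arrays for this comparison. The distances describe 6 arrays of 2 lines and are set largely by the difference between the lines and the place of the floor.

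Of 44 other symbols of the ABC family, 11 had a value, from 21 probe sets. ABCA4, the bile salt pump ABCB11, the sterol pump subunit ABCG8 and the chloride channel CFTR were at the floor on every array. Of the 7 genes with signal, 1 was higher and 3 were lower in IPEC-J2, where 25.4% of the 5513 genes with signal on at least 1 array were called (11.6% higher, 13.8% lower). The median difference of the 7 was -0.15, beside -0.05 over those 5513 genes. Genes in these counts are means over the probe sets of a symbol, and the ABC readings that follow are from single probe sets.

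ABCG2, another apical drug pump, ran opposite to ABCB1. Probe set Ssc.64.1.S1_at read 7.36, 8.13 and 6.58 for IPEC-1 and 4.00 on every IPEC-J2 array, so the lines did not overlap. This pattern of floor on all IPEC-J2 arrays and signal on all IPEC-1 arrays was found in 1.09% of all probe sets. The difference was -3.36 (SE 0.430, adjusted p = 0.0166 from limma), with -3.36 within note A and -4.13 within note B. The IPEC-1 mean of 7.36 lay below the level of 7.78, so no lower bound above 1 exists. The other ABCG2 probe set, Ssc.25103.1.S1_at, is assigned the same source record and was at the floor throughout. The call was lost without IPEC-1 replicate 1 or any 1 IPEC-J2 array, and with a block for the replicate number (adjusted p = 0.107 from limma) or for the notes with the remaining arrays as the third pair (0.0953).

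TAP1, a subunit of the peptide pump that loads MHC class I, was higher in IPEC-J2. Ssc.27863.1.S1_at read 9.14, 9.33 and 9.44 in IPEC-J2 and 7.94, 7.26 and 7.48 in IPEC-1, with no overlap. The difference was 1.74 (3.35-fold, SE 0.210, adjusted p = 0.0142 from limma), and it was 1.50 and 1.88 within notes A and B. Against the level of 7.85, it was 2.74-fold. The other 2 TAP1 probe sets were at the floor on all arrays. The call was lost without IPEC-1 replicate 3, IPEC-J2 replicate 2 or IPEC-J2 replicate 3, and with the replicate block (adjusted p = 0.128 from limma) or the note block (0.0508).

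ABCD4, a lysosomal transporter needed for cobalamin release, was lower in IPEC-J2 in 1 of 3 probe sets. Ssc.27521.3.S1_at read 6.63, 6.50 and 6.01 in IPEC-1 and the floor on every IPEC-J2 array (difference -2.38, SE 0.181, adjusted p = 0.00440 from limma), with -2.63 within note A and -2.50 within note B. It did not pass with the replicate block (adjusted p = 0.0637 from limma) or the note block (0.0580). The other probe sets had differences of -1.87 (adjusted p = 0.301) and -0.86 (adjusted p = 0.0666), with every IPEC-J2 array below every IPEC-1 array in both. All readings of the called probe set lay below the levels for lower bounds.

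ABCF1, a family member without membrane domains that acts in translation initiation, read 8.57, 8.53 and 8.38 in IPEC-J2 and 8.90, 9.04 and 8.84 in IPEC-1. It was 1.35-fold lower in IPEC-J2 (difference -0.43, SE 0.0796, adjusted p = 0.0409 from limma). Within notes A and B it differed by -0.52 and -0.47. The call was kept in only 4 of 17 settings. It was lost with quantile normalization (adjusted p = 0.146 from limma) or centring on the 75th percentile (0.135), and with the replicate block (0.0998) or the note block (0.104). It was also lost within notes A and B (0.191), without features at the floor on every array (0.0609), with trend and robust moderation (0.0730), and without any 1 array. ABCD3, which imports branched and dicarboxylic acyl chains into peroxisomes, had 3 probe sets above the floor on all arrays, none of which passed, with the difference furthest from 0 at -0.42 (adjusted p = 0.350). ABCF2 differed by 0.04 (95% interval -0.25 to 0.33) and 2 of 3 ABCC6 probe sets by 1.14 and 1.56 without passing (adjusted p of 0.336 and 0.486 from limma).

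**Figure D3:**
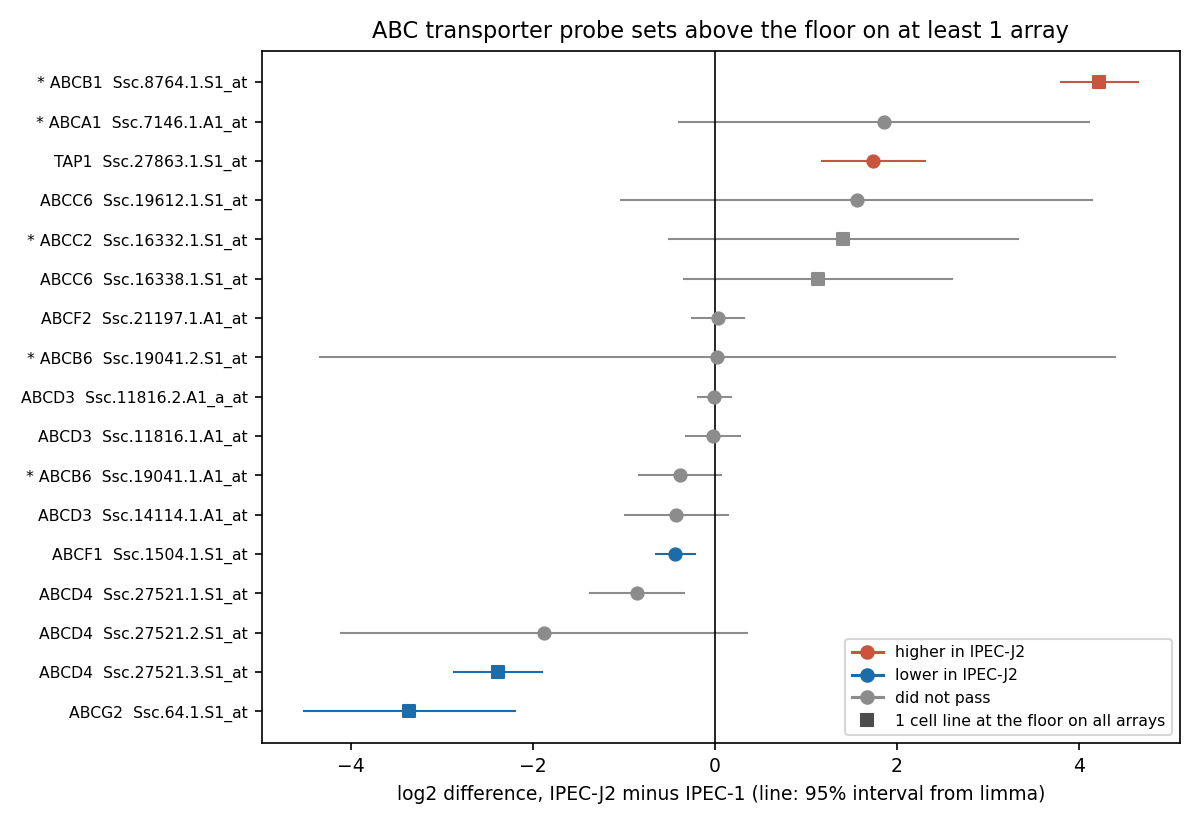
Log2 difference (horizontal axis, IPEC-J2 minus IPEC-1) of the 17 ABC family probe sets above the floor on at least 1 array, with 95% intervals from limma and with ABCA1, ABCB1, ABCB6 and ABCC2 starred. Red marks the 2 higher and blue the 3 lower probe sets, squares those at the floor on all arrays of a line, with ABCB1 at 4.23 at the top and ABCG2 at -3.36 at the bottom.

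**Figure D4:**
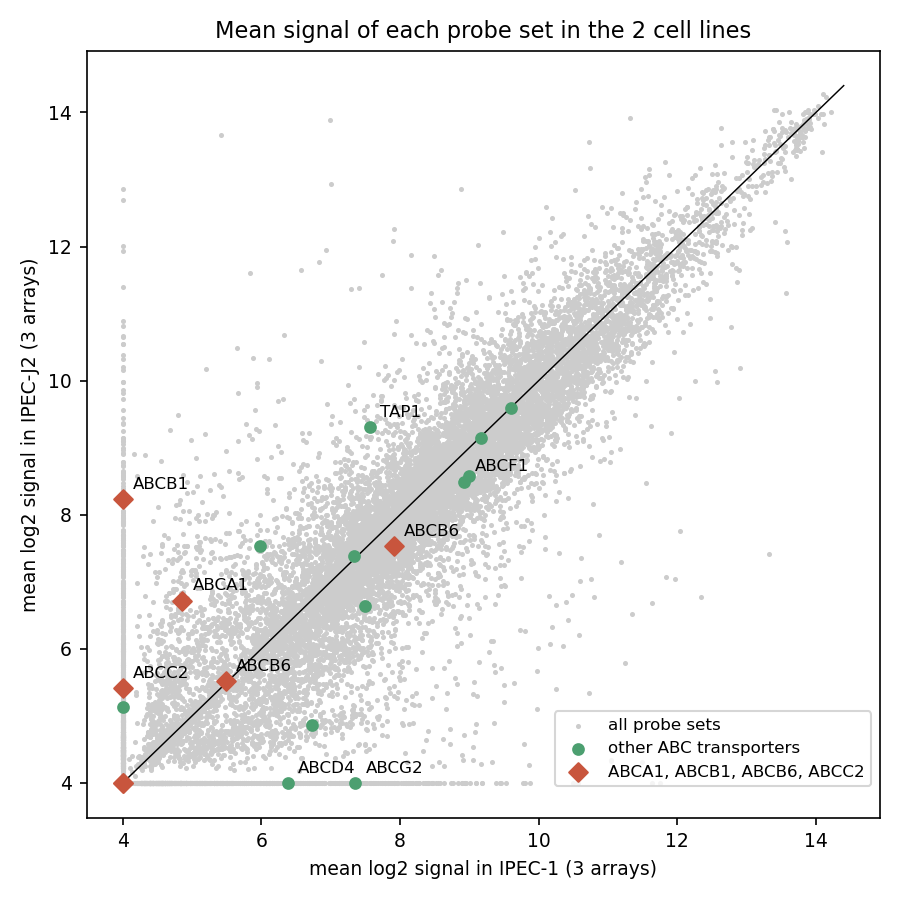
Mean log2 signal of every probe set in IPEC-1 (horizontal) and IPEC-J2 (vertical), 3 arrays each, with the 7 probe sets of the 4 genes as red diamonds, other ABC probe sets in green, all others in grey and the line of equal signal. ABCB1 stands on the left edge, which is the IPEC-1 floor, at 8.23 and ABCG2 on the lower edge, the IPEC-J2 floor, at 7.36.

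Genes of processes around these pumps were counted in 5 further lists, whose readings are means over the probe sets of a gene. The lists were written from general knowledge, and a link of each gene to the pumps was not tested. The lists were written with earlier results of these data known, so their shares are no independent test. The study had already reported higher EZR and VIL1 mRNA in IPEC-J2. Where a gene was compared with the level, the mean of each of its probe sets was first set to no less than the level. Over all measured genes, 11.6% were called higher and 13.8% lower. Among 12 measured genes for anchoring or delivery at the apical membrane, 5 were higher (41.7%) and 1 was lower (8.33%), with a median difference of 0.64. Calls in this list fell to 3 with the replicate block and to 0 within notes A and B. The linkers EZR and MSN had differences of 1.44 and 2.43 (2.10-fold against the level for MSN), the scaffold SLC9A3R1 1.16, and VIL1 read 13.83, 14.04 and 13.81 in IPEC-J2 and 8.45, 4.00 and 8.53 in IPEC-1. The study's text states that VIL1 was missing from its array and reports it by qPCR. The readings here come from a probe set that carries the symbol VIL1 in the platform annotation. The scaffold PDZK1, which binds the tail of ABCC2, was lower by a difference of -0.31 at readings close to the floor, and its call was lost with quantile normalization and with centring. The calls of SLC9A3R1, VIL1 and the motor MYO6 were each lost without 4 or 5 of the 6 arrays in turn.

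Of 18 measured genes of xenobiotic sensing and conjugation, 5 were higher (27.8%) and 2 lower (11.1%), with a median difference of 0.21. GSTA1, which makes glutathione conjugates, gave no signal above the floor in IPEC-1 and read 8.09, 7.08 and 8.48 in IPEC-J2 as the mean of 3 probe sets, with an adjusted p of 0.00633 from limma. Its lower bound was 2.24-fold, since 2 of its probe sets exceeded the level on average (8.99 and 10.20) and the other, at 4.46, did not. The quinone reductase NQO1 read 12.70, 12.36 and 12.71 in IPEC-J2 against 10.49, 11.31 and 10.94, a 3.20-fold increase (adjusted p = 0.0163). GSTO1, GSR and GSS, enzymes that use, recycle or make glutathione, were 1.79-fold, 1.75-fold and 1.60-fold higher. Against the level GSR was 1.41-fold higher. The membrane-bound MGST1 and the epoxide hydrolase EPHX2 were lower. MGST1 read 11.15, 11.19 and 11.68 in IPEC-1 but 6.58, 5.67 and 7.32 in IPEC-J2, and EPHX2 10.68, 10.85 and 10.88 against 6.73, 6.52 and 7.07. Against the level of 7.78 the decreases were 11.8-fold and 8.13-fold. The calls of NQO1, GSR and GSS were each lost in 5 or 6 settings, leaving out single arrays among them. The GSTA1 call was lost with the replicate block, and those of GSTO1 and MGST1 with the note block. GSTO1 also did not pass without IPEC-J2 replicate 2.

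Around ABCA1, 1 of 20 measured genes of sterol efflux and sensing was higher and 0 were lower by limma. The gene was NR1H3, the liver X receptor alpha that activates ABCA1 transcription. It read 8.09, 8.40 and 8.28 in IPEC-J2 and 7.72, 7.68 and 7.91 in IPEC-1, a 1.40-fold difference (adjusted p = 0.0455 from limma, 0.00681 to 0.201 in other settings). APOA1, which accepts lipid from ABCA1, averaged 10.83 in IPEC-J2 and 10.38 in IPEC-1 and did not pass (adjusted p = 0.467). The median difference of the list was -0.37, with differences from -1.64 (RXRB) to 1.49 (APOE), neither of which passed.

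Around ABCB6, 4 of 16 measured genes of heme synthesis, breakdown and transport were higher (25.0%) and 1 was lower (6.25%), with a median difference of -0.09. TSPO, a mitochondrial protein that binds cholesterol and porphyrins, was at the floor in IPEC-1 and read 9.70, 10.67 and 10.09 in IPEC-J2, at least 4.94-fold higher (adjusted p = 0.000566 from limma). SLC25A37, which brings iron into mitochondria, was higher by 1.02 (adjusted p = 0.00146 from limma, 1.11-fold against the level). ALAD, the enzyme that makes porphobilinogen, was higher by 0.36 (adjusted p = 0.0164 from limma, 1.04-fold against the level). The ALAD call was lost with the replicate block (0.0614), the note block (0.107) and without IPEC-J2 replicate 3 (0.0586). FTH1, the heavy chain of ferritin, was higher by 0.28 (adjusted p = 0.0215), a call kept in 8 of 17 other settings and lost without IPEC-1 replicate 3 or any 1 IPEC-J2 array. SLC46A1, a folate carrier that also takes up heme, read 8.36, 8.67 and 8.44 in IPEC-1 but 5.34, 4.00 and 4.00 in IPEC-J2 (adjusted p = 0.00711 from limma), and was 1.83-fold lower against the level. The SLC46A1 call was lost with the replicate block. The enzymes ALAS1, UROD, PPOX and FECH did not pass.

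Of 6 measured carriers of organic anions, cations and bile acids, SLCO2B1, an uptake carrier of organic anions, was higher. It read 6.87, 7.04 and 7.43 in IPEC-J2 and the floor in IPEC-1 (adjusted p = 0.000874 from limma), all below the level of 7.85. The other 5 did not pass.

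**Figure D5:**
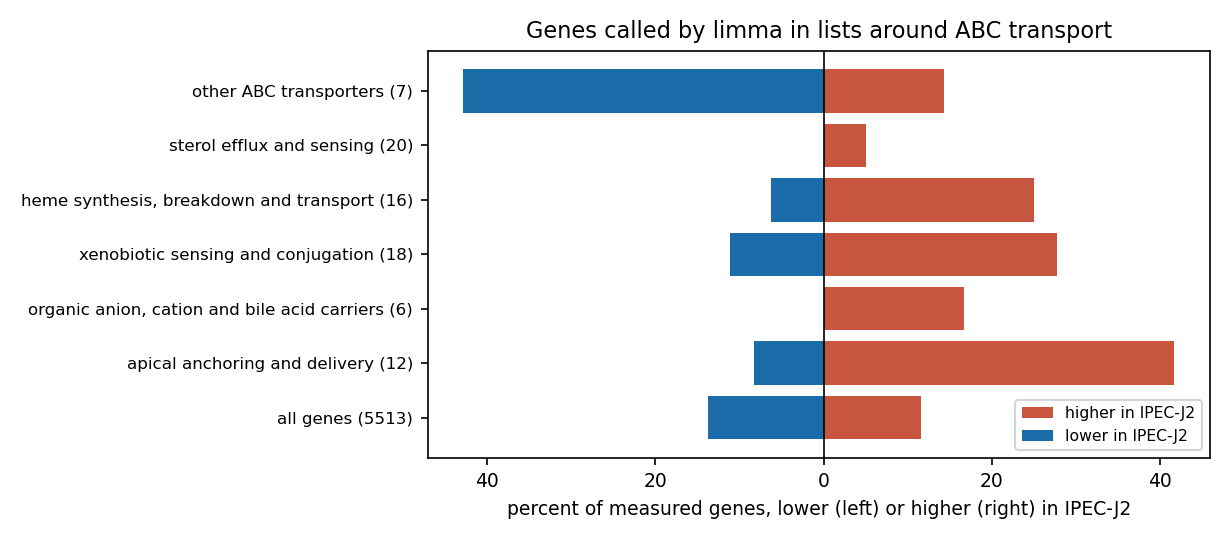
Percent of the measured genes of each list (number in brackets) called lower (blue, left) or higher (red, right) in IPEC-J2 by limma at an adjusted p under 0.05, beside all measured genes. Apical anchoring and delivery has 41.7% higher, the other ABC transporters 42.9% lower and all genes 11.6% higher and 13.8% lower. The lists were written with earlier results of these data known.

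The epithelial label was checked with marker genes. The epithelial markers KRT8, KRT18, CDH1, EPCAM and CLDN4 were above the floor on all arrays and did not pass the test. The keratin KRT19 was lower in IPEC-J2 with a difference of -0.80 (adjusted p = 0.00223 from limma). CLDN3 and CLDN7 were higher in IPEC-J2 (adjusted p of 0.000214 and 0.0297 from limma), with CLDN3 at the floor in IPEC-1 and 1.16-fold higher against the level. OCLN differed by -0.90, with every IPEC-J2 array below every IPEC-1 array, and did not pass. TJP1 read 5.81, 4.00 and 5.73 in IPEC-1 and the floor in IPEC-J2, and did not pass. HNF4A, a transcription factor of enterocytes, was higher in IPEC-J2 (adjusted p = 0.00244), 2.23-fold against the level, with IPEC-1 readings of 4.00, 4.82 and 4.98. The brush border enzymes ANPEP and DPP4 and the fatty acid binding protein FABP2 were at the floor on every array, and in all 12 of 15 epithelial markers had signal, 4 of them higher and 1 lower. Summed over the markers above the floor on the linear scale, epithelial signal was 37022 to 38770 in IPEC-1 and 48741 to 54906 in IPEC-J2. The higher epithelial sum of IPEC-J2 came largely from VIL1, which read 13.83, 14.04 and 13.81 there and 8.45, 4.00 and 8.53 in IPEC-1. It therefore does not show higher epithelial markers in general. Fibroblast and muscle markers summed to 4672 to 10495 and 2677 to 4425, with COL3A1, ACTA2, DES, DCN and LUM at the floor. Most of this signal was VIM, which read 13.06, 12.17 and 13.35 in IPEC-1 but 10.95, 11.63 and 11.85 in IPEC-J2, with no overlap and no call (adjusted p = 0.0989 from limma). THY1 was at the floor in IPEC-1, averaged 9.55 in IPEC-J2 and was called higher (adjusted p = 9.82e-05 from limma, 3.39-fold against the level). Leukocyte markers summed to 32.5 to 93.4 and 0 to 32.5, with PTPRC, CD4 and ITGAM at the floor. CD3E read 5.60, 6.13 and 6.05 in IPEC-1, was at the floor in IPEC-J2 and was called lower (adjusted p = 0.00346 from limma). Endothelial markers summed to 34.2 to 42.9 and 0 to 13.1, with CDH5, VWF, KDR and TEK at the floor and PECAM1 called lower (5.88, 5.65 and 5.71 in IPEC-1, 4.00, 4.87 and 4.00 in IPEC-J2, adjusted p = 0.0307 from limma). Their part in the ABCB1 and ABCG2 differences was not tested, and in such bulk RNA fewer cells with a transcript and less of it per cell cannot be told apart.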

How the data were processed

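The authors hybridised 1 culture per array and deposited signals per probe set, which were read here as log2. The submitters' processing notes name GCOS 1.1.1 and PLIER, and the methods describe global scaling and correction for background before normalization and summary. The methods name the global scaling for GCOS, and whether it holds for the deposited values made with PLIER is not given in the sources used here. The log base is not given either, and log2 was inferred from the floor of 4, the log2 of 16. Detection calls were not used, and 3 arrays per line limit the precision.

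Without the 124 control probe sets, 10069 of 23999 had 1 gene symbol in the platform annotation, 198 had several and 13732 were unnamed here. The 4 genes carry the same symbols in the RefSeq table. Sequences and coordinates were not used here. The lines were compared per probe set by lmFit and eBayes of limma 3.58.1 at their defaults under R 4.3.3 (no block, Benjamini-Hochberg adjustment over 23999 probe sets). The fit was repeated on the means of probe sets per symbol, as in the methods, for 6765 genes, of which 5513 had signal on at least 1 array and are called measured. The fit kept the 7677 probe sets that never rose above the floor. Lists are described by counts and medians. The fit was tested on simulated data with known changes.

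Replicate numbers of the titles go against the culture notes, and deviations from the line means of equally numbered arrays correlated at -0.04, -0.12 and 0.02, so the numbers were not taken as pairs. Arrays of note A correlated at 0.05 and those of note B at 0.17. The remaining arrays, IPEC-1 replicate 3 and IPEC-J2 replicate 2, correlated at 0.13. The main comparison has no block for these pairs.

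Named were all probe sets of the 4 genes, the other ABC genes with signal, called genes of each list (up to 4 per direction) and the nearest probe sets by distance among those above the floor on the same arrays. GSS and MYO6, called beyond that number, ABC genes at the floor and list genes that did not pass were chosen after their values were seen. So were the markers HNF4A, CLDN3, CLDN7, THY1, KRT19, VIM, CD3E and PECAM1. The genes and lists were chosen with earlier results of these data known. Alternatives were quantile normalization, centring, an offset of 16, filters on the floor and on means under 6, trend and robust moderation, the methods' t-test, blocks for replicate number and culture note, and leaving out each array.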

Additional observations from a re-analysis of the deposited data

How the results depend on the processing

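The ABCB1 call was kept in 16 of 17 settings with an adjusted p (differences of 3.31 to 4.39, adjusted p of 2.03e-05 to 0.192 from limma or the methods' t-test). ABCA1 and ABCC2 each passed in 1 of 16 settings, without IPEC-1 replicate 2 and without IPEC-J2 replicate 3, and the first ABCB6 probe set in 0 of 17 (adjusted p of 0.0510 to 0.656). ABCB6 Ssc.19041.2.S1_at turned to -0.17 with the culture note as a random block, to -1.03 within notes A and B, to -0.71 without IPEC-1 replicate 1 and to -1.48 without IPEC-J2 replicate 2 (-1.48 to 0.79 over single arrays left out). The mean of both ABCB6 probe sets, -0.18, turned to 0.04 without IPEC-1 replicate 3, to 0.29 without IPEC-J2 replicate 1 and to 0.16 without IPEC-J2 replicate 3 (-0.97 to 0.29). ABCF2 turned to -0.10 within notes A and B, to -0.04 without IPEC-1 replicate 3 and to -0.02 without IPEC-J2 replicate 2 (-0.04 to 0.12). The cause was not tested. Quantile normalization and centring raised the median difference of measured probe sets by 0.04 and 0.06. Values in probe sets at the floor on all arrays, and signals below the levels for lower bounds, limit what the arrays resolve.

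Calls over all probe sets were 1338 higher and 1497 lower, and 2387 and 2934 with the methods' t-test before adjustment (1154 lower genes in place of 761). With the replicate block, 306 and 409 probe sets were called, 272 genes higher and 324 lower in place of 640 and 761, and 1 of the 7 probe sets (ABCB1, adjusted p = 0.0339 from limma). With the notes and the remaining arrays as the third pair as a block, 482 and 496 probe sets and 364 and 379 genes were called. With the 4 arrays of notes A and B and the note as a block, limma called 0 probe sets, 0 genes and 0 of the 7, with 3616 probe sets, 1541 genes and 1 of the 7 at an unadjusted p under 0.05, and 1 residual degree of freedom. With 1 array left out, 629 to 1278 probe sets were higher and 808 to 1122 lower, 355 to 613 genes higher and 417 to 572 lower, and 1 to 2 of the 7 were called.

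Called genes of the lists, with the replicate block, the third pair and notes A and B in this order, were 1, 1 and 0 for the other ABC transporters (4 in the main comparison), 4, 3 and 0 for xenobiotic genes (7), 2, 3 and 0 for heme (5) and 0, 2 and 0 for sterol genes (1). For apical genes (6) they were 3 with the replicate block and 0 within the notes, and for carriers (1) 0 within the notes. Leaving out features of mean under 6 gave 2 other ABC transporters, 2 sterol genes and 0 carriers. Sterol genes were 2 with centring and with the random block, 3 with the unadjusted t-test and 0 with the adjusted one and with trend and robust moderation. Carriers were 2 with quantile normalization, centring, the floor filter, the unadjusted t-test and the random block. With 1 array left out, the lists gave 1 to 3 other ABC transporters, 0 to 3 sterol, 3 to 6 heme, 4 to 8 xenobiotic, 3 to 7 apical genes and 1 to 2 carriers.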
